A study of Mus musculus with 8 samples.

Results

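miR-221 and miR-222 were measured as the mature miRNAs mmu-miR-221-3p and mmu-miR-222-3p, the 2 of 611 mouse miRNAs on the array whose names in the scanner files matched miR-221 or miR-222 with either arm. No 5p arm of either miRNA matched. The samples were C3H10T1/2 cells, an established mouse mesenchymal cell line that can be led into cartilage, bone or fat. The WT group received wild type IhhN, the signalling fragment of Indian hedgehog, as recombinant protein at 750 nM for 48 h. The MT group received IhhN with the E95K change at the same dose and time, and the control group, with its induction labelled none, was incubated for 48 h. One label of the control samples also carries 750 nM. That no protein was given to them is taken here from the induction label and from their titles, which call them non-protein induced. Each group held 2 RNA samples, and each WT sample was hybridised on 2 arrays, which gave 8 one-colour arrays on 1 slide. No source used here says whether the 2 samples of a group came from separate cultures, so p-values measure only the spread between these samples. All arrays come from a single cell line, so the values describe that line.

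miR-221 and miR-222 are processed from neighbouring hairpins and are widely studied as regulators of the cell cycle. Their best known target is Cdkn1b, which encodes the CDK inhibitor p27, and they also lower Cdkn1c (p57) and the receptor Kit. Indian hedgehog is a secreted protein of growth plate cartilage that controls the proliferation and maturation of chondrocytes. The comparisons here asked whether the level of the miRNA pair differed between cells given wild type protein, mutant protein or no protein.

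The mature sequences, from RefSeq on build GRCm38.p6, are shown because the pair share the part that selects targets. Capitals mark the seed, bases 2 to 8 from the 5′ end.
mmu-miR-221-3p: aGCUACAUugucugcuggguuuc
mmu-miR-222-3p: aGCUACAUcuggcuacugggucu
Both are 23 bases long. The first 8 bases are identical, and 11 of 23 positions carry the same base when the sequences are aligned without gaps. miR-221-3p lies at chrX:19146307-19146329 and miR-222-3p at chrX:19146901-19146923, both on the minus strand. Of 1679 mature mouse miRNAs in the RefSeq table, 3 have this seed. The third, miR-1928, did not match a miRNA on the array.

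The hairpins show where each mature miRNA is cut from, with the mature 3p arm in capitals.
Mir221: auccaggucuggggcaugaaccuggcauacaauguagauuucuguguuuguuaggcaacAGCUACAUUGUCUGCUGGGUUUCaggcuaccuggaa
Mir222: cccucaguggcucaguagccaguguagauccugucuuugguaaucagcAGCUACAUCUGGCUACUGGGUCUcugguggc
Mir221 spans chrX:19146294-19146388 and Mir222 spans chrX:19146893-19146971, so that 504 bases separate the hairpins. They are next to each other in the gene order of the annotation, with the pseudogene Gm5383 before Mir221 and the lncRNA gene Gm14636 after Mir222.

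Both miRNAs were detected on all 8 arrays. Each was covered by 2 probes of 10 spots, every spot used was well above background, and no spot on any array was saturated. The brighter probe of miR-221-3p read between 41.4 and 54.1 times the detection floor (the median over arrays of the lowest signal called detected). The brighter probe of miR-222-3p read between 5.37 and 9.26 times that floor. The spots of 1 probe on 1 array had a median coefficient of variation of 7.04% for miR-221-3p and 23.4% for miR-222-3p. The measurement of miR-222-3p was thus the noisier. Probes differ in brightness, so the level of one miRNA is not set against the level of the other.

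Levels below are log2 of the scaled signal of the brighter probe. miR-221-3p was at 9.71 and 9.50 in the WT samples, 9.46 and 9.60 in the MT samples, and 9.52 and 9.34 in the control samples. WT replicate 1 was the highest and control replicate 2 the lowest, and the ranges of all 3 groups overlapped. The group means were 9.61 ± 0.14 in WT, 9.53 ± 0.10 in MT and 9.43 ± 0.12 in control (SD, n = 2).

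miR-222-3p was at 7.05 and 6.52 in the WT samples, 6.58 and 6.86 in the MT samples, and 6.75 and 6.39 in the control samples. WT replicate 1 was again the highest and control replicate 2 the lowest, and again all 3 ranges overlapped. The group means were 6.79 ± 0.37 in WT, 6.72 ± 0.19 in MT and 6.57 ± 0.25 in control (SD, n = 2). For both miRNAs the order of the means was WT, MT, control. Each step in that order was smaller than the larger SD of the groups it separates, so no neighbours in the order differed beyond their spread.

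**Figure D1:**
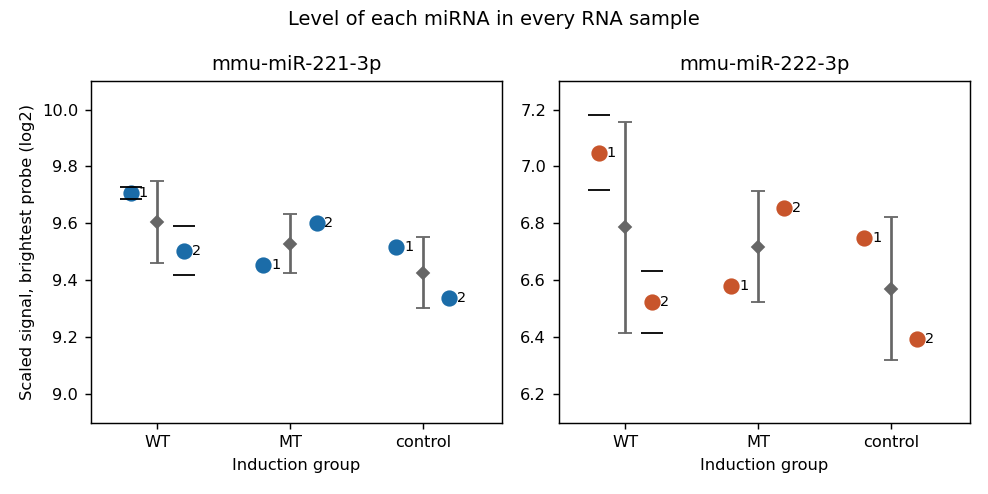
Log2 scaled signal of the brighter probe (y axis, not starting at 0) by induction group (x axis). Filled circles are RNA samples with their replicate number, black dashes are the 2 arrays of each WT sample, and grey diamonds with bars are group means ± SD (n = 2). WT replicate 1 lies highest and control replicate 2 lowest in both panels, and the groups overlap.

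The 2 WT samples of miR-222-3p were 0.52 apart on the log2 scale, which is more than any difference between group means. The repeat arrays of 1 RNA differed by 0.26 for WT replicate 1 and by -0.22 for WT replicate 2 (first array minus second), a technical SD of 0.19 and 0.15. The median technical SD over the miRNAs tested was 0.07 and 0.06 for those RNAs, so miR-222-3p repeated less well than most. The repeat arrays differed less for miR-221-3p, with technical SDs of 0.03 for WT replicate 1 and 0.12 for WT replicate 2. The second of these was also above the median of 0.06 for that RNA.

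The second probe of miR-221-3p gave nearly the same pattern over the arrays, and that of miR-222-3p a similar one with another order of the groups. The dimmer probe of miR-221-3p read 9.07 and 8.99 on the arrays of WT replicate 1, 8.75 and 8.87 on those of WT replicate 2, 8.73 and 8.92 in the MT samples, and 8.83 and 8.60 in the control samples. WT replicate 1 was the highest and control replicate 2 the lowest here too. The dimmer probe of miR-222-3p read 6.31 and 6.04 on the arrays of WT replicate 1, 5.55 and 5.78 on those of WT replicate 2, 5.92 and 5.999 in the MT samples, and 5.87 and 5.57 in the control samples. On this probe, which was 2.99 to 5.08 times the floor, the lowest array was one of WT replicate 2. WT minus MT was -0.043 on it and 0.07 on the brighter probe, so its group means ran MT, WT, control.

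**Figure D2:**
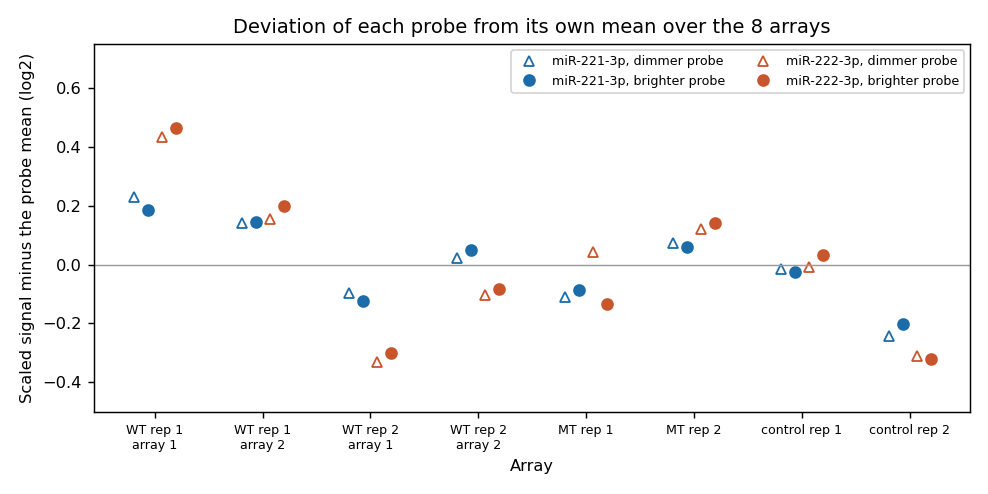
Deviation of each probe from its own mean over the 8 arrays, in log2 units (y axis), by array (x axis). Blue is miR-221-3p and orange miR-222-3p, with the brighter probe filled and the dimmer probe open. All 4 probes are above their mean on both arrays of WT replicate 1 and below it in control replicate 2.

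Cells given wild type IhhN had 1.13-fold the miR-221-3p of control cells and 1.16-fold the miR-222-3p, and neither difference passed the test. For miR-221-3p, WT minus control was 0.18 ± 0.16 (SE) on the log2 scale, with a 95% interval of -0.21 to 0.56 and a limma adjusted p of 0.47. For miR-222-3p it was 0.21 ± 0.23, with an interval of -0.34 to 0.77 and an adjusted p of 0.53. In fold terms the intervals run from 0.867 to 1.48 for miR-221-3p and from 0.792 to 1.70 for miR-222-3p. A 2-fold change lay outside both under this scaling. It lay within the interval of either miRNA when the scaling used all mouse probes (-1.17 to 0.81 and -1.22 to 0.93 on the log2 scale). For miR-222-3p it also lay within the interval without a filter on detection (up to 1.09), without WT replicate 2 (up to 1.11) and without control replicate 1 (up to 1.29). Of the 142 miRNAs detected in all arrays of at least 1 group and tested, 0 (0%) passed an adjusted p of 0.05, and 40 (28.2%) had an unadjusted p under 0.05, neither of the pair among them.

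The median difference over all 142 miRNAs was 0.11. miR-221-3p was 0.07 above that median and miR-222-3p 0.11 above it. From the highest difference downward, miR-222-3p ranked 59 and miR-221-3p ranked 65 of 142. Both were thus close to the middle of the miRNAs tested. A change above 2-fold was seen for 3 of the 142 (2.11%).

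Cells given the E95K protein had 1.07-fold the miR-221-3p of control cells and 1.11-fold the miR-222-3p, and again neither passed. MT minus control was 0.10 ± 0.16 (SE; 95% interval -0.28 to 0.49) for miR-221-3p and 0.15 ± 0.23 (-0.40 to 0.70) for miR-222-3p, with a limma adjusted p of 0.67 for both. Over all miRNAs tested, 0 (0%) passed the adjusted threshold, 56 (39.4%) had an unadjusted p under 0.05, and 1 (0.704%) differed by more than 2-fold. The median difference was 0.13, and the pair ranked 76 (miR-221-3p) and 68 (miR-222-3p) of 142 from the top. These 2 comparisons share the control samples and are not independent of each other.

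The wild type and mutant proteins were compared directly. WT minus MT was 0.08 ± 0.16 (SE; 95% interval -0.31 to 0.46) for miR-221-3p and 0.07 ± 0.23 (-0.48 to 0.62) for miR-222-3p, with a limma adjusted p of 0.99 for both. No miRNA passed the adjusted threshold, and 0 of 142 (0%) had an unadjusted p under 0.05. The pair ranked 37 and 38 of 142. In fold terms these intervals run from 0.808 to 1.38 for miR-221-3p and from 0.715 to 1.54 for miR-222-3p. With the scaling over all mouse probes they were wider and reached 1.43 and 1.502 on the log2 scale, so a 2-fold difference between the proteins was then within them.

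**Figure D3:**
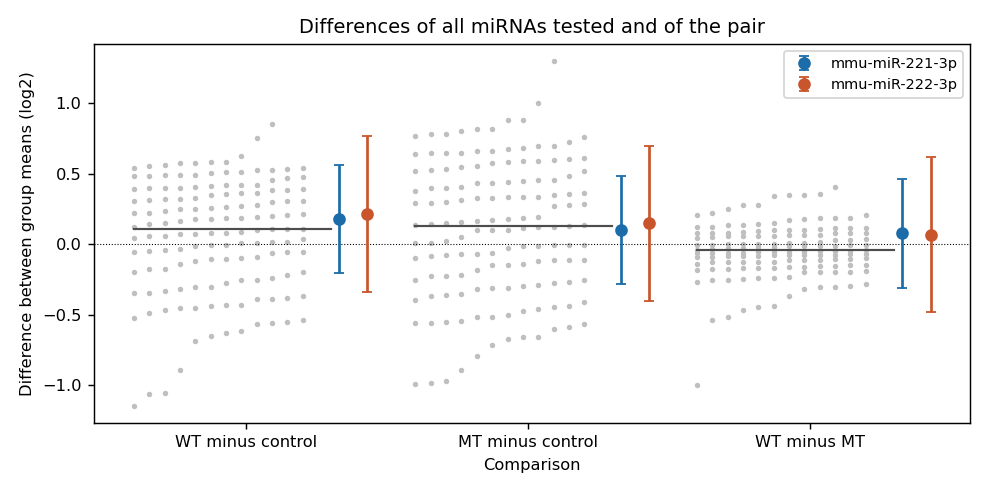
Difference between group means on the log2 scale (y axis) for 3 comparisons (x axis). Grey points are all 142 miRNAs tested, spread sideways for legibility, and the dark line is their median. Coloured points with bars are the pair with 95% limma intervals, which all include 0.

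Each sample's log2 level of miR-221-3p minus that of miR-222-3p, centred on the mean over the 6 samples, was -0.17 and 0.15 in WT, 0.05 and -0.08 in MT, and -0.06 and 0.12 in control. The 2 samples of each group lay on opposite sides of 0, so this difference varied within groups and its groups overlapped. The root mean square distance between the centred profiles of the 2 miRNAs was 0.11 on the log2 scale. Of 101 other miRNAs detected on all arrays, 12 were nearer to miR-221-3p than miR-222-3p was, and 1 was nearer to miR-222-3p than miR-221-3p was. From the mean profile of the pair, the median distance to these 101 was 0.27. The 5 nearest to that mean profile were miR-365-3p (0.06), miR-30d-5p (0.08), miR-100-5p (0.08), miR-151-5p (0.09) and miR-23b-3p (0.09). Only 1 of these 5, miR-365-3p, stayed among the nearest 5 under quantile normalization.

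Where the arrays lay on the slide moved with the groups. The arrays of WT replicate 1 and both MT arrays were in the left columns, and those of WT replicate 2 and both control arrays in the right columns. All WT arrays were in slide row 1, and all MT and control arrays in slide row 2. A difference of WT from either group therefore cannot be told apart from one between slide rows, also within a side. Within the left side, WT minus MT was 0.18 for miR-221-3p and 0.33 for miR-222-3p. Within the right side, WT minus control was 0.08 and -0.047, with 1 WT sample on each side and no test. With side as a term in the fit, MT minus control turned to -0.10 for miR-221-3p and -0.38 for miR-222-3p. MT and control were never on the same side, so this term rests on the WT samples alone, with 1 on each side.

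The direction against control also turned with the scaling between arrays, of which 5 were tried. Before scaling the control arrays were the brightest by their 75th percentile (606 and 785 signal units against 432 to 565 on the others), and the brighter probe of miR-221-3p read 1195 signal units in control replicate 1 and between 646 and 863 on the other arrays. Without scaling, WT minus control was -0.31 for miR-221-3p and -0.28 for miR-222-3p, and MT minus control was -0.56 and -0.51. The median over all miRNAs moved with them, to -0.32 and -0.50. Relative to that median, over the 5 scalings, WT minus control was between 0.01 and 0.07 for miR-221-3p and between 0.04 and 0.11 for miR-222-3p. MT minus control was between -0.10 and 0.05 and between -0.06 and 0.08. Another background correction (normexp) and the total gene signal of Feature Extraction widened the range of WT minus control to between -0.09 and 0.14 for miR-221-3p and between 0.04 and 0.16 for miR-222-3p. Array signals are relative, so a change shared by most miRNAs cannot be told apart from a change in the amount of labelled RNA.

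**Figure D4:**
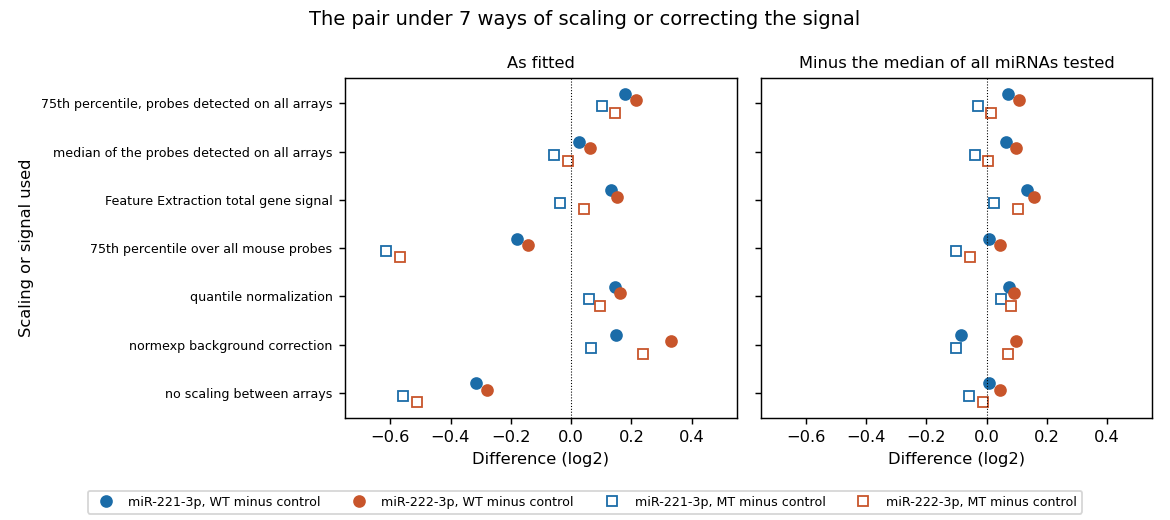
Difference against control on the log2 scale (x axis) under 5 scalings between arrays, another background correction and the total gene signal (y axis), as fitted on the left and minus the median of all miRNAs tested on the right. Filled circles are WT minus control and open squares MT minus control, in blue for miR-221-3p and orange for miR-222-3p. The values spread from -0.61 to 0.33 on the left and from -0.10 to 0.16 on the right.

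Other miRNAs known to lower CDK inhibitors were followed with the pair. Of 12 such names, the pair included, 11 were on the array and 10 could be tested. In WT against control, 0 of 10 passed the adjusted threshold, 6 were on the higher side and 4 on the lower side, and 4 had an unadjusted p under 0.05, or 40% of the list against 28.2% of all miRNAs tested. The median difference was 0.20, against 0.11 for all miRNAs. In MT against control the counts were 0 passing, 6 higher, 4 lower and 4 with an unadjusted p under 0.05, close to the 39.4% of all miRNAs tested, with a median of 0.12 against 0.13. In WT against MT, 3 were higher and 7 lower, with a median of -0.06 against -0.04. The pair was thus 2 of the 6 list members with no unadjusted p under 0.05 in either comparison against control.

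The sequences of 4 of these miRNAs show that they carry other seeds, again in capitals.
mmu-miR-106b-5p: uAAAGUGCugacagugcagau
mmu-miR-93-5p: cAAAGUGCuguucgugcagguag
mmu-miR-92a-3p: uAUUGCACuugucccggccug
mmu-miR-181a-5p: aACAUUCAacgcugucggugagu
miR-106b-5p and miR-93-5p have one seed in common and are known to lower Cdkn1a (p21). miR-92a-3p, of the miR-17 to miR-92a cluster, and miR-181a-5p have seeds of their own among the 4 sequences shown, though not all seeds are unique within the list.

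Among the 10 list members tested, miR-106b-5p and miR-92a-3p had the smallest p in WT against control, and miR-181a-5p and miR-93-5p in MT against control. miR-106b-5p was at 5.28 and 5.42 in WT and at 5.78 and 5.97 in control, a difference of -0.52 ± 0.16 (SE, limma adjusted p = 0.14). miR-92a-3p was at 7.44 and 7.44 in WT and at 6.93 and 7.02 in control, a difference of 0.47 ± 0.14 (adjusted p = 0.14). In both, the WT and control samples did not overlap, which was also the case for 92 of all 142 miRNAs tested (64.8%). miR-181a-5p was at 6.14 and 5.88 in MT and at 5.26 and 5.15 in control, a difference of 0.80 ± 0.17 (adjusted p = 0.061). miR-93-5p was at 7.31 and 7.07 in MT and at 6.46 and 6.63 in control, a difference of 0.65 ± 0.16 (adjusted p = 0.061). The MT and control samples of these did not overlap, as was the case for 96 of 142 (67.6%), and none of the 4 passed the adjusted threshold. Each of the 4 lay on the same side of control under the other protein. In MT, miR-106b-5p was at 5.47 and 5.39 and miR-92a-3p at 7.51 and 7.49. In WT, miR-181a-5p was at 5.82 and 5.56 and miR-93-5p at 7.01 and 6.99. miR-106b-5p and miR-93-5p, which have the same seed, thus differed from control in opposite directions.

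miRNAs known to lower cyclins and CDKs, which act against proliferation, were the other list. Of its 18 miRNAs on the array, 17 could be tested and 0 passed in any comparison. In WT against control, 7 were higher and 10 lower, 7 had an unadjusted p under 0.05 (3 higher and 4 lower, against 28.2% of all miRNAs), and the median was -0.14 against 0.11 for all miRNAs. In MT against control, 7 were higher and 10 lower, 9 had an unadjusted p under 0.05 (4 higher and 5 lower, against 39.4% of all miRNAs), and the median was -0.23 against 0.13. In WT against MT, 0 of 17 had an unadjusted p under 0.05, and the median was -0.04, the same as for all miRNAs to 2 decimals. The smallest p in both belonged to let-7b-5p, which was 0.53 ± 0.16 (SE) above control in WT (limma adjusted p = 0.14) and 0.67 ± 0.16 above it in MT (adjusted p = 0.061). let-7c-5p followed at 0.50 ± 0.17 and 0.61 ± 0.17. Both are members of the let-7 family, which lowers cyclins, Cdk6 and Ras. let-7a-5p (0.36 in WT and 0.52 in MT) and let-7d-5p (0.33 and 0.43) were also on the higher side, as were let-7e-5p and let-7f-5p by less. Of the family on this list only let-7g-5p, at -0.20 in WT and -0.30 in MT, and let-7i-5p, at -0.14 and -0.23, were on the lower side. These other let-7 members were named after their values were seen. The whole list ran from -0.63 to 0.53 in WT minus control and from -0.79 to 0.67 in MT minus control. Its lowest difference was thus larger in size than that of let-7b-5p, the highest, in each.

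The cell type label was checked with marker miRNAs. Of 5 mesenchymal markers on the array (both arms of miR-199a, miR-214-3p, miR-143-3p and miR-145-5p), 4 were detected on all 8 arrays and none was undetected throughout. The markers of blood, epithelium, muscle, neurons, liver and embryonic stem cells were detected on no array. Between 104 and 150 mouse miRNAs were detected per array, with the lowest counts on the first array of WT replicate 1 and in MT replicate 1, where negative control spots spread most (SD 6.63 and 5.61 signal units against 2.91 to 3.76 on the others).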

How the data were processed

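The deposited files are scanner tables, 1 per array, from Agilent Feature Extraction (version 10.7 in the file header, 9.1 in the submitters' processing notes), with header build mm9. Per the file headers, the intensity used is the background-subtracted processed signal. The deposited series table equals it to within 0.005% of the signal, so no normalization between arrays had been applied.

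Control and outlier spots were left out, spots were averaged per probe, and a probe was detected when over 50% of its spots were well above background. Arrays were scaled to a common 75th percentile, taken over the 174 probes that all 8 arrays detected. A floor of 3.97 (log2) was set, log2 was taken and the brightest probe per miRNA kept. The 2 arrays of each WT sample were averaged. limma 3.58.1 in R 4.3.3 fitted all 3 groups over 142 miRNAs with Benjamini-Hochberg adjustment and no replicate block. Figures used matplotlib 3.10.9. The number of arrays limits the precision.

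The pair, the lists, the nearest 5 profiles and the tests were chosen with earlier results of these data known. Named miRNAs are the pair, the 5 nearest in profile, miRNAs sharing the seed, and the 2 with the smallest p per list and comparison. The other let-7 members were added after their values were seen. Alternatives covered scaling, background correction, floor, filter, probe choice, technical arrays, slide side, replicate block and each replicate left out.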

Additional observations from a re-analysis of the deposited data

How the results depend on the processing

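Over 27 alternatives and 6 differences of the pair (162 values), 0 passed an adjusted p of 0.05 and 0 had an unadjusted p under 0.05. The smallest adjusted p was 0.12. The sign stayed in 142 values and turned in 20. Many of the values could not turn. The detection filters, the lower floor, the blocks, the intensity trend and the fits of only the groups compared leave the differences of the pair as they were. The same holds for leaving out a replicate of the group not compared, and for the choice of technical array in MT minus control. The 142 are therefore no measure of how stable the direction was. The cause of these turns was not tested. With the 75th percentile over all mouse probes, WT minus control was -0.18 (miR-221-3p) and -0.14 (miR-222-3p), and MT minus control -0.61 and -0.57. Without scaling, added after the data were seen, these were -0.31, -0.28, -0.56 and -0.51. With the median of the detected probes MT minus control was -0.057 and -0.011, and with the total gene signal it was -0.035 for miR-221-3p. With slide side as a term, WT minus control of miR-222-3p was -0.047, and MT minus control was -0.10 and -0.38. WT minus MT of miR-222-3p was -0.043 with its other probe.

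Leaving out 1 replicate, WT minus control ran from 0.08 to 0.28 (miR-221-3p) and from -0.047 to 0.48 (miR-222-3p), MT minus control from 0.01 to 0.19 and from -0.031 to 0.32, and WT minus MT from -0.024 to 0.18 and from -0.19 to 0.33. Of these, the value of miR-222-3p without WT replicate 1 (-0.047 and -0.19 against control and MT) and that without WT replicate 2 (0.48 and 0.33) lie farthest apart.

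The count of all miRNAs called was less stable. WT against control went from 0 to 1 with 0.5 times the floor, 3 with total gene signal, 22 with normexp and 28 without scaling. MT against control went from 0 to 1, 3, 40 and 46 under these, to 11 with all 8 arrays and the RNA as a random block, and to 29 with the test limited to miRNAs detected on all arrays. Leaving out 1 replicate gave 0 to 18 in MT against control (18 without MT replicate 2), 0 to 1 in WT against MT and 0 in WT against control. The calls never included the pair. Of the list miRNAs known to lower CDK inhibitors, at most 3 were called in any comparison. With normexp these were 3 of 10 in WT against control, beside 22 of all 142, and 3 of 10 in MT against control, beside 40 of 142. Of those known to lower cyclins and CDKs at most 8 of 17 were called. This was in MT against control without scaling, beside 46 of all 142.

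Deviations of same-numbered samples correlated at 0.39 (WT and control), -0.46 (MT and control) and 0.02 (WT and MT), so the numbers were not taken to pair the samples. In this balanced design a replicate block cannot move the differences (0.18 and 0.21 for WT minus control), and 0 miRNAs were called with it. Crossing the MT numbers, tried after seeing the correlation, gave 26 calls in MT against control and 0 in the others.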
